A study of Mus musculus with 20 samples.

Results

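Interleukins are secreted proteins that carry signals between immune cells and between immune cells and the epithelium, and each acts through a receptor made of 1 or more chains. The genes described here are the interleukins, their receptor chains and their natural antagonists, chosen by gene name: every gene whose name on the array starts with Il and a digit. There were 82 such genes, with 148 probes, among 25034 named genes. A member entered a test when the scanner software marked its probe as well above background on enough of the arrays compared (at least 6 of 12 for BRAFV600E and Cre control, at least 4 of 8 for MEKi and Vehicle). This left 64 members to test for BRAFV600E and 62 for MEKi, with 61 in both and 17 in neither.

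The RNA came from intestinal tissue of C57BL6/j mice, with 1 one-colour Agilent array per sample and 20 arrays in all. Cre control (n = 6) carried VillinCreER, a tamoxifen-activated Cre recombinase driven by the Villin promoter and thus limited to epithelium, and BRAFV600E (n = 6) carried in addition a Braf allele that Cre switches to the mutant kinase. Both groups received tamoxifen, per the study's methods, which describe young adults of both sexes and tissue taken 3 days after the last dose. MEKi (n = 4) received PD184352, an inhibitor of MEK, the kinase below BRAF in the MAPK pathway, and Vehicle (n = 4) its carrier. That these mice also carried the mutant allele is stated in the study's legends and not in the labels. Per the methods, they received tamoxifen before the inhibitor or carrier, in fewer and smaller doses than Cre control and BRAFV600E. The treatment text of the labels, the same for every array, concerns statin dosing of female mice at 13 weeks of age, 3 days after induction. Apart from the 3 days, which the study's methods and legends also give, it applies to none of the 4 groups. The labels do not say that the samples of a group were separate litters or cohorts, so the p-values measure the spread between these samples.

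Interleukin signalling in the gut has a few recurring arrangements. IL-1 family receptors act through MYD88 and NF-kB and are held in check by decoys and antagonists, whereas most other interleukin receptors act through JAK kinases and STAT transcription factors. In the gut, IL-22 and IL-17 act on epithelial cells and drive antimicrobial genes, IL-33 and IL-25 from the epithelium and its surroundings call in type 2 immunity, and IL-7 and IL-15 sustain lymphocytes. Many receptor chains are carried mainly by lymphocytes and myeloid cells, and in RNA from whole tissue fewer cells of a type and less RNA per cell cannot be told apart.

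Values are log2 processed signals with the 75th percentile of each array at 0, and levels are compared only for 1 gene between arrays. Between 60.8% and 76.8% of spots were well above background on an array, and none was saturated. The 6 Cre control arrays and 2 of the BRAFV600E arrays shared slide 1, the other 4 BRAFV600E arrays were on slide 2, and MEKi and Vehicle filled separate rows of slide 3, where row and group cannot be told apart. The signal of spiked-in control RNA rose less steeply with its amount on 3 Cre control arrays (replicates 2, 3 and 5, slope 0.759 to 0.843) than on the other arrays of slides 1 and 3 (1.02 to 1.08), and slide 2 gave a slope of 0. High Y-linked signal was seen on 3 arrays of Cre control, 4 of BRAFV600E, 4 of MEKi and 2 of Vehicle. Epithelial markers were high in every group, with summed levels of 9.11 to 9.60 in BRAFV600E, 8.97 to 9.61 in Cre control, 9.38 to 9.75 in MEKi and 9.45 to 9.93 in Vehicle.

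In BRAFV600E tissue nearly all of the interleukin genes that changed were lower. Most were receptor chains, which were also 34 of the 64 members tested. By limma with Benjamini-Hochberg adjustment over 19041 genes, 13 of 64 members (20.3%) passed an adjusted p of 0.05, against 12.5% of all genes tested. Of these, 12 were lower (18.8% of members, against 6.27% of all genes) and 1 was higher (1.56%, against 6.19%). At an unadjusted p under 0.05 there were 26 members (40.6%), against 30.1% of all genes. Fold changes were above 0 for 17 of 64 members (26.6%) and for 48.4% of all genes, and the median log2 fold change was -0.34 for members and -0.02 for all genes. The groups did not overlap for 3 members (4.69%), all lower, against 7.36% of all genes and 3.17% in that direction. These lower counts, and those by role and family below, include Il7, which met the filter by its Cre control arrays alone.

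By role, 10 of 34 receptor chains were called (9 lower), 3 of 26 ligands (all lower) and 0 of 3 soluble antagonists. A further 12 ligands and 5 receptor chains were too dim to test, so detection also differed between the roles. By family, 4 of 12 members of the IL-1 family fell, 3 of 20 of the common gamma chain and type 2 group, 2 of 7 of the IL-6 family, 1 of 4 of the IL-12 family, 1 of 9 of the IL-17 family and 1 of the 2 remaining members, and the single called member of the 10 in the IL-10 family rose.

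**Figure D1:**
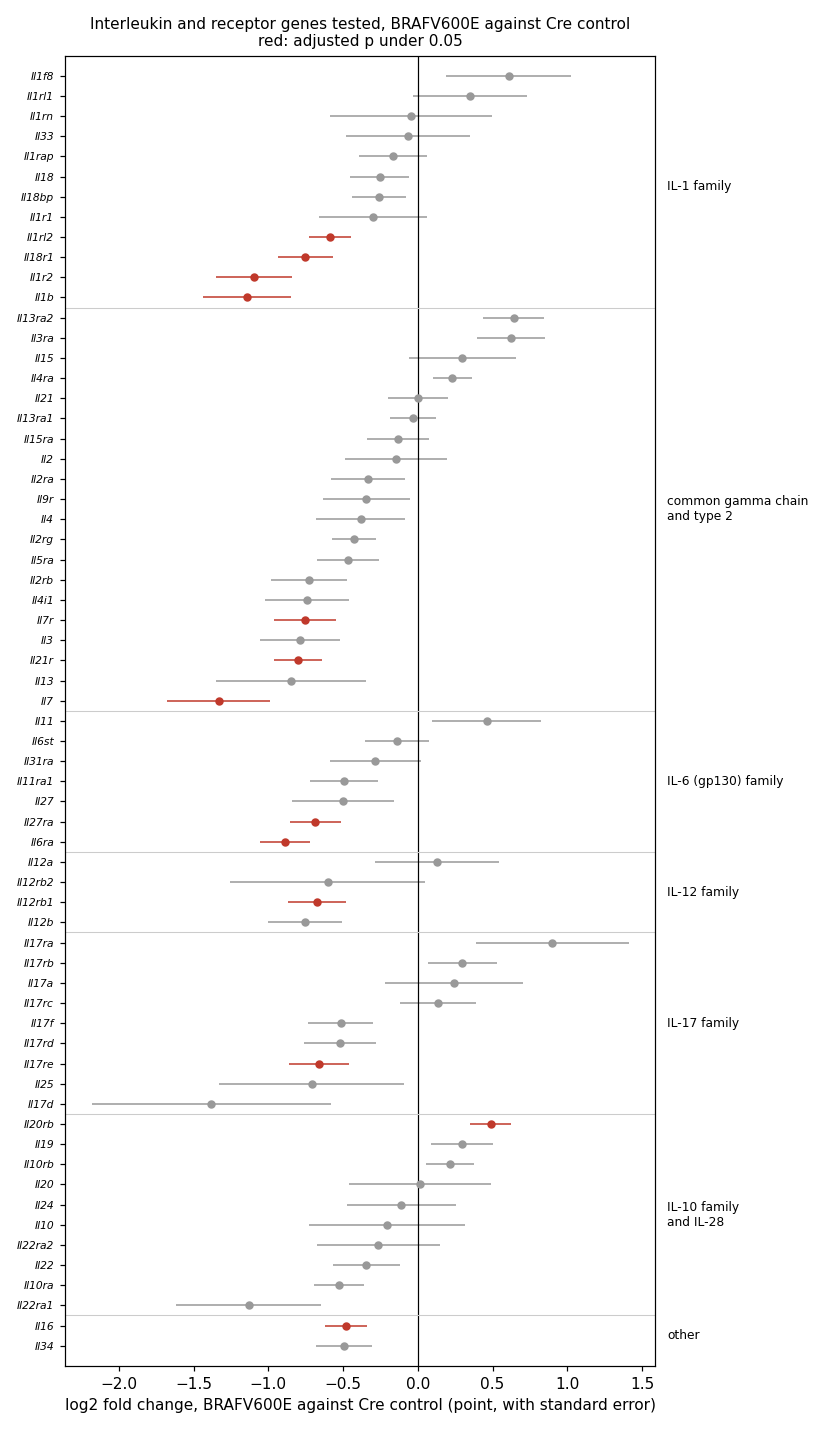
Log2 fold change of each of the 64 tested members, BRAFV600E against Cre control, with its standard error as a horizontal bar, grouped by family; red points passed an adjusted p of 0.05. Of the 13 red points, 12 lie left of 0, from -0.48 for Il16 to -1.33 for Il7, and Il20rb lies to the right at 0.49.

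Among the ligands, Il1b, the main secreted IL-1 of myeloid cells, ranged from -1.80 to -0.45 on the Cre control arrays (median -1.24) and from -3.06 to -1.51 on the BRAFV600E arrays (median -2.22). The groups overlapped at their edges, and the level fell by 1.14 on the log2 scale (SE 0.29), 2.21-fold, with an adjusted p of 0.025 in limma. Its probe lies at chr2:129190347-129190406 on mouse build mm9, and a second measured probe also gave a lower value (-0.995).

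Il7, a stromal and epithelial factor that maintains lymphocytes, was dim. Its levels ran from -4.50 to -2.54 in Cre control (median -4.03) and from -5.83 to -4.53 in BRAFV600E (median -5.20), without overlap but with a gap of only 0.03. It fell by 1.33 (SE 0.34, adjusted p = 0.026, limma), and its probe (chr3:7573196-7573255, mm9) was well above background on all 6 Cre control arrays but on 2 of 6 BRAFV600E arrays. Those Cre control arrays alone met the filter, so Il7 entered the test through the group where it was higher. Il16, a chemoattractant for CD4+ cells, fell by 0.48 (SE 0.14, adjusted p = 0.042, limma), from a mean of -0.80 ± 0.16 to -1.28 ± 0.25 (SD, n = 6 each). The Il16 call held in 3 of 12 fits without 1 array and was lost with slide as a block (-0.52, adjusted p = 0.13, limma).

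The receptor chains that fell came from several families. Il6ra, the ligand-binding chain of the IL-6 receptor, was measured at 0.74 to 1.34 in Cre control (median 1.04) and at -0.24 to 0.60 in BRAFV600E (median 0.21). Every BRAFV600E array lay below every Cre control array, and the level fell by 0.89 (SE 0.17, 1.85-fold, adjusted p = 0.0062, limma). This value comes from the brighter probe (chr3:89674054-89674113, mm9), while the gene's other measured probe gave 0.06. With the mean of both probes the change was -0.42 with an adjusted p of 0.11. Il6st, the shared gp130 chain through which IL-6 signals, gave -0.14 (adjusted p = 0.71, limma, 1 BRAFV600E array is left out of this fit because its spot was marked as an outlier). The other measured Il6st probe gave -0.78.

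Il21r, the IL-21 receptor of lymphocytes, ranged from -0.91 to -0.22 in Cre control (median -0.61) and from -1.66 to -1.10 in BRAFV600E (median -1.38). The groups were apart by 0.19, and the level fell by 0.80 (SE 0.16, 1.75-fold, adjusted p = 0.0086, limma, probe at chr7:132774961-132775020, mm9). Il7r, the IL-7 receptor chain of T cells and innate lymphoid cells, fell by 0.76 (SE 0.21, adjusted p = 0.034, limma), with Cre control at -1.73 to -0.90 and BRAFV600E at -2.64 to -1.54. The groups overlapped for Il7r. Its call held in 5 of 12 fits without 1 array and was lost with slide as a block (-0.51, adjusted p = 0.29, limma). Because Il7 met the filter by its Cre control arrays alone, its lower value lends no support to that of Il7r. Il2rg, the common gamma chain shared by the receptors for IL-2, IL-4, IL-7, IL-9, IL-15 and IL-21, gave -0.43 and did not pass (adjusted p = 0.076, limma).

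In the IL-1 family, Il1r2, a decoy receptor that binds IL-1 without signalling, was at -0.86 to 0.25 in Cre control (median -0.20) and at -2.07 to -0.80 in BRAFV600E (median -1.30). Only the lowest Cre control array fell within the BRAFV600E range, and the level fell by 1.09 (SE 0.25, 2.13-fold, adjusted p = 0.017, limma, chr1:40182006-40182066, mm9). Il18r1, the ligand-binding IL-18 receptor chain, fell by 0.75 (SE 0.18, adjusted p = 0.021), and Il1rl2, the receptor for IL-36, by 0.59 (SE 0.14, adjusted p = 0.021), both in limma. The signalling receptor Il1r1 gave -0.30 (adjusted p = 0.62) and Il1rl1, the IL-33 receptor ST2, 0.35 (adjusted p = 0.58, with -0.29 from its other measured probe), neither past the threshold. The decoy and the ligand IL-1 beta therefore both passed as lower, while the signalling receptor had a wide error (SE 0.36).

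Il27ra, the IL-27 receptor, fell by 0.69 (SE 0.17, adjusted p = 0.023, limma), from -1.45 ± 0.26 to -2.13 ± 0.31 (SD, n = 6 each). Il12rb1, which is part of the receptors for both IL-12 and IL-23, fell by 0.67 (SE 0.19, adjusted p = 0.040), from -0.995 ± 0.35 to -1.67 ± 0.32. The Il12rb1 call held in 3 of 12 fits without 1 array. Il17re, the IL-17C receptor chain of epithelium, fell by 0.66 (SE 0.20, adjusted p = 0.048). For Il17re the 4 BRAFV600E arrays of slide 2 lay between -3.25 and -2.65 and the 2 of slide 1 at -2.34 and -1.97, within or close to the Cre control range of -2.29 to -1.75. With slide as a block its change was -0.15 (adjusted p = 0.68), and its call held in 2 of 12 fits without 1 array.

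Il20rb, a chain shared by the receptors for IL-19, IL-20 and IL-24, was the member that rose. Its levels were -2.39 to -1.88 in Cre control (median -2.06) and -1.98 to -1.37 in BRAFV600E (median -1.57), and 1 BRAFV600E array lay within the Cre control range. The increase was 0.49 (SE 0.14, 1.40-fold, adjusted p = 0.038, limma, probe at chr9:100358255-100358314, mm9). This call held in 3 of 12 fits without 1 array and was lost with slide as a block (0.35, adjusted p = 0.26, limma).

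**Figure D2:**
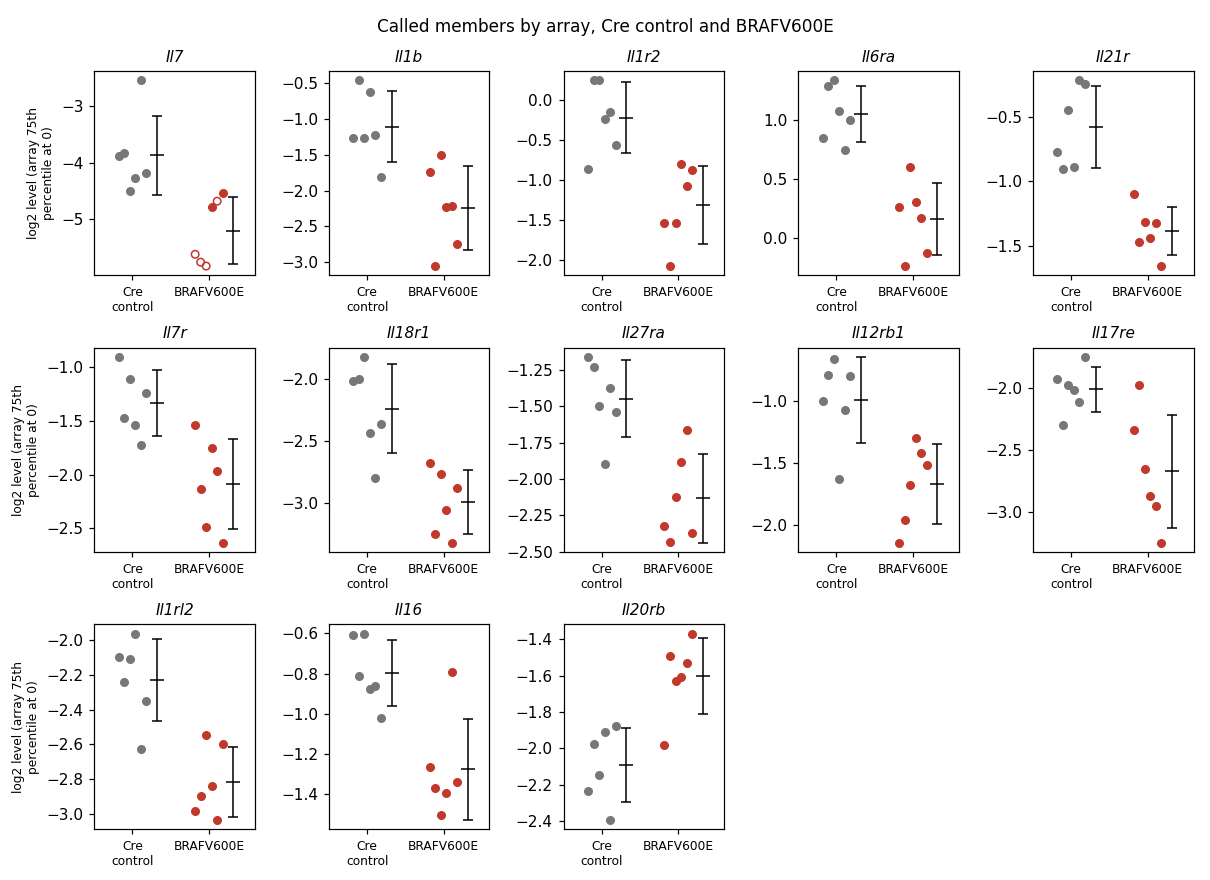
Log2 level (array 75th percentile at 0) on each Cre control and BRAFV600E array for the 13 called members, 6 arrays per group; open circles were not well above background, and black bars give the mean and SD. The groups are apart for Il7, Il6ra and Il21r and overlap for the other 10; 4 of the 6 BRAFV600E circles of Il7 are open.

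Several members with a known place in gut epithelium did not pass the test. Il22ra1, the epithelial IL-22 receptor chain, ranged from 2.78 to 5.33 in Cre control and from 1.43 to 3.88 in BRAFV600E, a difference of -1.13 with a wide error (SE 0.49, adjusted p = 0.14, limma). Il22 itself gave -0.34 (adjusted p = 0.32). Il17rd, also known as Sef, which is described as a feedback inhibitor of FGF and MAPK signalling, gave -0.52 (SE 0.24, adjusted p = 0.16), at 1.07 ± 0.26 against 1.59 ± 0.55 in the control (SD, n = 6 each). Other measured Il17rd probes gave -0.52 and -0.04.

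None of the epithelial alarmins passed. Il18 gave -0.25 (adjusted p = 0.41, limma), Il33 -0.07 (SE 0.41, adjusted p = 0.93, with -0.70 from its other measured probe) and Il25, the tuft cell product that calls in type 2 immunity, -0.71 (SE 0.62, adjusted p = 0.48). Il15 gave 0.30 and Il15ra -0.13, and the type 2 receptor chains Il4ra and Il13ra1 gave 0.23 and -0.03, with adjusted p between 0.26 and 0.92. The other measured Il4ra probe gave -0.37. Il10rb, shared by the receptors for IL-10 and IL-22, gave 0.21 (adjusted p = 0.40). Il11 gave 0.46, Il17a 0.24 and Il17ra 0.90, and their adjusted p were 0.43, 0.77 and 0.26. Il1a, Il6 and Il23a were well above background on at most 1 array of either group and were not tested.

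Markers of immune cells were mostly lower beside these members, and so were those of several other cell types. Of 87 cell type markers tested, 64 were below 0 and 23 above, with a median of -0.32. All 5 goblet cell markers were below 0 (2 called, median -0.78), and all 5 smooth muscle markers were above 0 (2 called). No B cell, plasma cell or mast cell marker was called. Of 9 T cell markers, Cd3g, Cd8a and Lck fell (-0.98, -0.83 and -0.93), 8 were below 0 and the median was -0.74, although the summed level of the list overlapped (5.37 to 6.81 in BRAFV600E, 5.43 to 6.76 in Cre control). Of 8 macrophage and dendritic cell markers, Csf1r and Itgax fell (-0.69 and -0.44) and all 8 were below 0, with summed levels of 4.19 to 4.75 in BRAFV600E and 4.56 to 5.15 in Cre control. Of 5 innate lymphoid and NK cell markers tested, Klrb1c fell by 1.39, 2 were above 0 and 3 below (median -0.34), and the summed level overlapped (0.87 to 2.36 in BRAFV600E, 1.09 to 1.58 in Cre control). No neutrophil marker of 5 passed, although all 5 were below 0, and 2 of 6 tuft cell markers tested fell. The part of cell numbers in the lower interleukin receptor levels was not tested.

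The number of called members depended on single arrays and on the scaling. Leaving out 1 array at a time gave 6 to 14 calls, with 8, 6 and 8 without Cre control replicates 1, 2 and 3, and 8, 8 and 7 without BRAFV600E replicates 2, 3 and 6. Without the 3 Cre control arrays of low spike-in slope none of the 13 passed (limma adjusted p 0.068 to 0.27) and Il3ra, an IL-3 receptor chain named here after its value was seen, was the 1 member called. All 13 kept their direction, with changes 0.695 to 1.17 times as large, and calls over all genes dropped from 2372 to 426. With slide as a block 6 of the 13 stayed called (Il1r2, Il12rb1, Il1rl2, Il27ra, Il6ra and Il7), and within slide 1 (2 BRAFV600E arrays) Il1r2 and Il6ra. Without scaling between arrays the median of all genes moved to 0.79, and 15 members were called higher and 0 lower; the members' median of 0.47 still lay below that of all genes.

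Under MEK inhibition 2 members were called, a share near that of all genes. Both encode natural antagonists of the IL-1 family. The IL-1 receptor antagonist Il1rn fell and the IL-18 binding protein Il18bp, which captures IL-18, rose. By limma over 19231 genes, 2 of 62 members (3.23%) were called, against 1.98% of all genes (1.09% higher and 0.884% lower). By role, 2 of the 3 soluble antagonists were called, 0 of 24 ligands and 0 of 34 receptor chains. The decoy Il1r2 was counted as a receptor chain, so the roles do not cover every antagonist. At an unadjusted p under 0.05 there were 9 members (14.5%), against 16.4% of all genes. MEKi and Vehicle arrays stood apart for 4 members (6.45%), 1 higher and 3 lower, against 12.2% of all genes (6.44% higher and 5.76% lower). Fold changes were above 0 for 38 of 62 members and for 54.6% of all genes, with medians of 0.10 and 0.04.

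The stretches of 250 bases before the starts of these 2 genes are shown because theirs were the levels that changed under the inhibitor of the MAPK pathway. They are from RefSeq on build GRCm38.p6, 5' to 3' on the gene's strand. Capitals mark TGANTCA, the letters bound by AP-1, a transcription factor below MAPK. Il1rn has 3 annotated starts, and 2 of them are given, from chr2:24336610-24336859 and chr2:24345121-24345370 on the plus strand; Il18bp has 1, from chr7:102018233-102018482 on the minus strand.
Il1rn, start at 24336860: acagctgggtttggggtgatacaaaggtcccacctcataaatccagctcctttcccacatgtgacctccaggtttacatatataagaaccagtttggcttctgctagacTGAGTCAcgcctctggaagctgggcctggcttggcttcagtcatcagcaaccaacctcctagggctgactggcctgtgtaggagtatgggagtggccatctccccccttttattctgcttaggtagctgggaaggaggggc
Il1rn, start at 24345371: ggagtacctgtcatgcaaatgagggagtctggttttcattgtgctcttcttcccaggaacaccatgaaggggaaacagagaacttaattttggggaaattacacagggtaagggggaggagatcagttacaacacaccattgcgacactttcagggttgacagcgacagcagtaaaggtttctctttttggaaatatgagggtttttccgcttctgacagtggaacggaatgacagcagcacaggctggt
Il18bp, start at 102018232: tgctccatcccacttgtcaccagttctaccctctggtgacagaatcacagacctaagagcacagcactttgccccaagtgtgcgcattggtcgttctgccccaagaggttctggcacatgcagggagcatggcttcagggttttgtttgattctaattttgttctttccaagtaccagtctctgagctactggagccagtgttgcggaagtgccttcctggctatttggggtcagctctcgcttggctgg

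AP-1 letters stand 141 bases before the first Il1rn start and in neither of the other stretches shown. They are found within the same distance of 6.75% of 32851 starts. Also searched, on both strands, were CCGGAA (ETS factors, 12.0% of starts), TTCNNNGAA (the GAS element bound by STAT dimers, 7.02%) and GAAANNGAA (the core of the ISRE element of interferon signalling, 7.13%), and none of these is present in the 3 stretches. Of the 15 members called in either comparison, 12 were in the RefSeq table, with 18 starts. Counted when any of its starts matched, 2 of these genes held AP-1 letters, 3 GAS letters and 0 either of the other motifs. These counts are per gene and the shares above are per start, so they cannot be compared directly.

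For Il1rn, the MEKi arrays read -3.63, -3.91, -3.07 and -3.14 and the Vehicle arrays -1.32, -1.18, -1.45 and -1.39. All MEKi arrays were lower, by a gap of 1.62, and the 4 Vehicle arrays lay close together. The mean fell from -1.33 ± 0.12 to -3.44 ± 0.40 (SD, n = 4 each), a log2 change of -2.10 (SE 0.20, 4.30-fold lower, adjusted p = 0.0049, limma). The probe lies at chr2:24206125-24206184 (mm9), and the second measured probe gave -0.59.

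For Il18bp, the MEKi arrays read 0.27, -0.15, 0.66 and -0.47 and the Vehicle arrays -1.07, -1.59, -1.48 and -1.84. All MEKi arrays were higher, by a gap of 0.61. The log2 change was 1.57 (SE 0.27, 2.97-fold higher, adjusted p = 0.030, limma, probe at chr7:109164100-109164159, mm9), and the second probe gave 1.497. This call was lost without MEKi replicate 1 or 3 or Vehicle replicate 2, 3 or 4 (adjusted p 0.055 to 0.11, change 1.38 to 1.58) and with Y-linked signal as a covariate (1.35, adjusted p = 0.14). The Il1rn call held when each array was left out in turn, and in a fit of all 20 arrays its adjusted p was 0.051.

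Neither antagonist passed the threshold between BRAFV600E and Cre control. Il1rn gave -0.05 (SE 0.54, adjusted p = 0.97, limma), with Cre control at -3.38 to -1.17 and BRAFV600E at -2.89 to 0.36. The highest value belonged to 1 BRAFV600E array, and the next highest was -2.06. Il18bp gave -0.26 (SE 0.18, adjusted p = 0.36).

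Il5ra and Il4ra were the other members without overlap, and neither passed the adjusted threshold. Il5ra, the IL-5 receptor chain of eosinophils and some B cells, read -3.57, -3.57, -3.89 and -3.61 with MEKi and -3.10, -3.06, -3.26 and -3.03 with Vehicle (-0.55, SE 0.12, adjusted p = 0.073, limma, probe at chr6:106660378-106660437, mm9). Il4ra, the IL-4 and IL-13 receptor chain, read 1.39, 1.13, 1.48 and 1.46 with MEKi and 2.07, 1.73, 1.86 and 1.49 with Vehicle (-0.42, SE 0.16, adjusted p = 0.22, chr7:132721137-132721196, mm9), and its second probe gave 0.08. The gap between the groups was 0.31 for Il5ra and 0.01 for Il4ra.

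**Figure D3:**
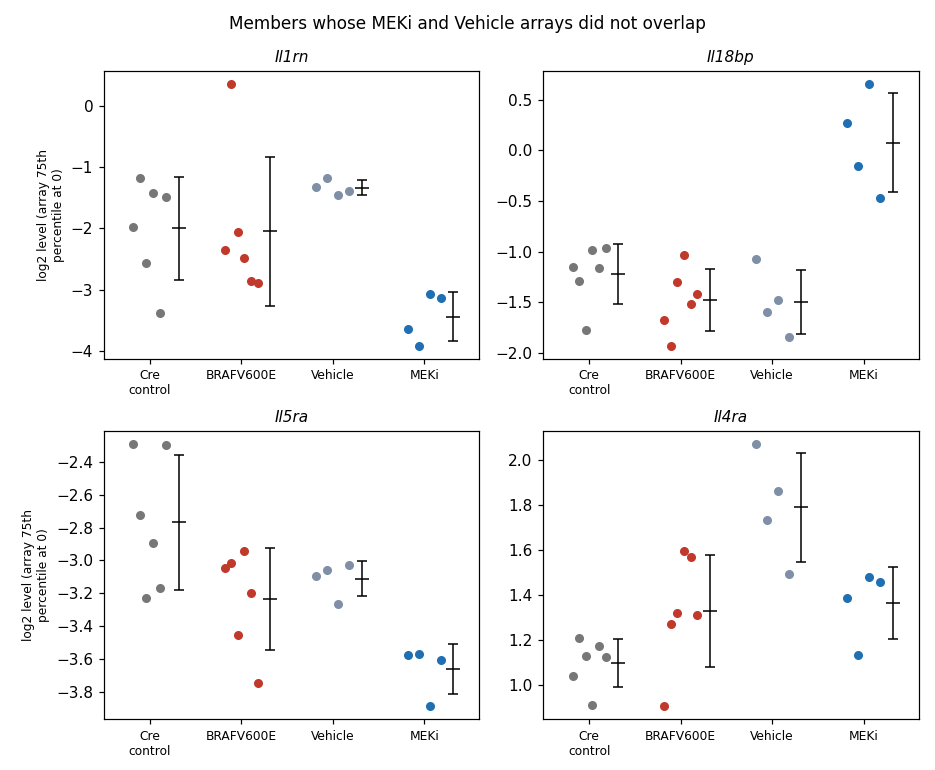
Log2 level (array 75th percentile at 0) of Il1rn, Il18bp, Il5ra and Il4ra on every array of the 4 groups, 6 arrays for Cre control and BRAFV600E and 4 for Vehicle and MEKi, with the mean and SD as black bars. The MEKi arrays lie below all Vehicle arrays for Il1rn, Il5ra and Il4ra and above them for Il18bp, and 1 BRAFV600E array stands high for Il1rn at 0.36.

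The ligands of both antagonists did not pass under MEKi. Il18 gave -0.33 (SE 0.18, adjusted p = 0.44, limma) and Il1b 0.22 (SE 0.39, adjusted p = 0.85), while Il1a was well above background on 1 of the 8 arrays. The receptors gave -0.35 for Il1r1 (adjusted p = 0.72), -0.74 for Il1r2 (adjusted p = 0.29) and 0.72 for Il18r1 (adjusted p = 0.50), and none passed.

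Il33, an alarmin of stromal and epithelial nuclei, read between -0.10 and 0.82 with MEKi and between -0.22 and 1.99 with Vehicle (-1.07, SE 0.49, adjusted p = 0.33, limma). Vehicle replicate 2 gave the lowest value, and the other 3 Vehicle arrays lay at or above 1.73. Without that array the difference was -1.59 with an adjusted p of 0.022. The same array gave the highest summed level of 5 exocrine pancreas markers, 10.2 against 2.34 to 2.61 on the other Vehicle arrays and 1.86 to 2.16 with MEKi, and the part of admixed tissue in its values was not tested.

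The remaining gut members did not pass the threshold under MEKi. Il22ra1 gave 0.75 (SE 0.38, adjusted p = 0.39, limma), Il22 0.08 (adjusted p = 0.94), Il17rd 0.36 (SE 0.19, adjusted p = 0.40), Il25 0.51 (SE 0.29, adjusted p = 0.45) and Il17ra 0.13 (adjusted p = 0.87). The probes of a gene differed: other measured probes gave -0.09 and 1.27 for Il17rd and -0.08 for Il22ra1. Il6ra gave 0.53 (SE 0.24, adjusted p = 0.33) and Il6st 0.31 (adjusted p = 0.55), with 0.04 and 0.85 from their other measured probes. Il15, Il15ra, Il13ra1, Il10rb, Il11, Il1rl1 and Il17a gave 0.02, -0.05, -0.10, 0.02, -0.08, 0.06 and -0.37, with adjusted p between 0.72 and 0.98, and Il2rg and Il7r gave 0.24 and 0.42. None of the 90 cell type markers tested was called, and 8 of 9 T cell markers were above 0 (median 0.64, summed level 5.73 to 6.34 with MEKi and 5.78 to 6.84 with Vehicle).

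The comparisons share no arrays, so each member's changes could be set side by side. Of 61 members tested in both, 38 (62.3%) had opposite signs, against 70.2% of all 18578 genes tested in both. Of the 12 members that fell in BRAFV600E, 9 were above 0 under MEKi (against 90.7% of all genes that fell), among them Il7 (0.62), Il12rb1 (0.91), Il18r1 (0.72), Il21r (0.64), Il6ra (0.53), Il27ra (0.52), Il7r (0.42), Il17re (0.26) and Il1b (0.22). Il7 was well above background on 4 MEKi and 2 Vehicle arrays, so it met the filter by the higher group alone in both comparisons. Its opposite signs therefore lend no support. Il1r2 (-0.74), Il1rl2 (-0.21) and Il16 (-0.07) were below 0 in both, and Il20rb, which rose in BRAFV600E, gave -0.26. None of the 61 members was called in both comparisons with opposite signs, and 201 of the 18578 genes were. With so small a share over all genes, this does not set the members apart.

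**Figure D4:**
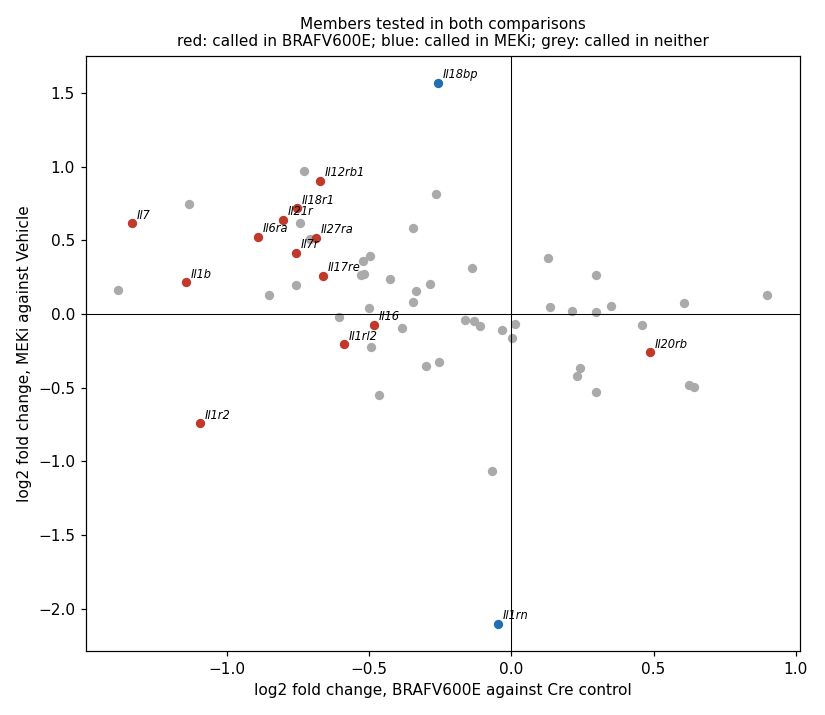
Log2 fold change of the 61 members tested in both comparisons, BRAFV600E against Cre control on the horizontal axis and MEKi against Vehicle on the vertical axis. The red points called in BRAFV600E lie mostly at upper left, near or below 0.91 on the vertical axis, while the blue points Il1rn (-2.10) and Il18bp (1.57) stand far from 0 on the vertical axis and near 0 on the horizontal axis.

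Of 83 genes that process, transmit or answer interleukin signals, 81 were tested in BRAFV600E, where 1 rose and 9 fell, with a median of -0.08. Among all genes tested 12.5% were called, so the share of the list was near the background. The receptor chains and ligands of the same families without an Il symbol held 4 of the lower genes among 12 tested. Lif, a gp130 ligand, fell by 2.27 (SE 0.65, adjusted p = 0.041), its receptor chain Lifr by 0.85 (SE 0.25, adjusted p = 0.046) and the related ligand Ctf1 by 1.05 (SE 0.19, adjusted p = 0.0056), all in limma; the fourth was Ebi3, a subunit of IL-27 and IL-35, at -0.62, named here after its value was seen. Among 10 JAK and STAT genes, Stat4, the transducer of IL-12, fell by 1.02 (SE 0.22, adjusted p = 0.011) and Stat6, that of IL-4 and IL-13, rose by 0.47 (SE 0.13, adjusted p = 0.036). Stat4 fell together with the IL-12 receptor chain Il12rb1, and all BRAFV600E arrays lay above all Cre control arrays for Stat6. Most calls on these lists were lost without the Cre control arrays of low spike-in slope, and their number changed when 1 array was left out.

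The known IL-22 and IL-17 target genes of gut epithelium held the largest differences of these lists, with 4 of 15 lower, 13 of 15 below 0 and a list median of -1.72. S100a8 and S100a9 are on this list and also among the neutrophil markers above, so those counts share genes. The antimicrobial lectin Reg3a was at 4.36 to 5.41 in Cre control (median 5.25) and at -7.19 to 2.70 in BRAFV600E (median 0.83), with no overlap, and fell by 5.27 (SE 1.35, adjusted p = 0.026, limma). Reg3b fell by 3.05 (SE 0.92, adjusted p = 0.048) and Reg3g by 2.52 (SE 0.70, adjusted p = 0.036), and the lowest BRAFV600E value of all 3 Reg3 genes came from replicate 2. Without that array the changes were smaller and still passed in limma, at -3.87 for Reg3a (adjusted p = 0.0022), -2.12 for Reg3b (adjusted p = 0.016) and -1.88 for Reg3g (adjusted p = 0.028). The fourth, Saa2, gave -2.23 (adjusted p = 0.050) and is named here after its value was seen. Paneth cells are a source of antimicrobial proteins, and 4 of their 5 markers also fell, with summed levels of 7.88 to 9.62 in BRAFV600E and 9.70 to 10.6 in Cre control; their part in the lower Reg3 levels was not tested. None of 20 genes from MYD88 to NF-kB, 11 SOCS inhibitors or 13 inflammasome genes was called.

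Under MEKi, 82 of the signalling genes were tested, 2 rose and 0 fell, with a median of 0.15, against 1.98% called among all genes. Socs3, a feedback inhibitor induced by gp130 and IL-22 signals, read 3.17 to 3.59 with MEKi and 1.87 to 2.59 with Vehicle and rose by 1.18 (SE 0.18, adjusted p = 0.022, limma). Stat2, a transducer of interferon signals, rose by 0.69 (SE 0.13, adjusted p = 0.041, limma). The groups did not overlap for either gene, and neither was called in BRAFV600E (Stat2 0.14, Socs3 0.31, adjusted p 0.53 and 0.63). Neither call held without MEKi replicate 1, 3 or 4, without Vehicle replicate 3 or 4, or with Y-linked signal as a covariate, and that of Stat2 was also lost without Vehicle replicate 1 or 2. Reg3b and Reg3g gave 2.02 and 1.96, higher on every MEKi array, and missed the threshold (adjusted p 0.14 and 0.067), and Reg3a gave 1.43 (adjusted p = 0.42), or 2.24 (adjusted p = 0.035, limma) without Vehicle replicate 2. That array is the one with the high exocrine pancreas markers, and the part of admixed tissue in its Reg3a value was not tested.

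**Figure D5:**
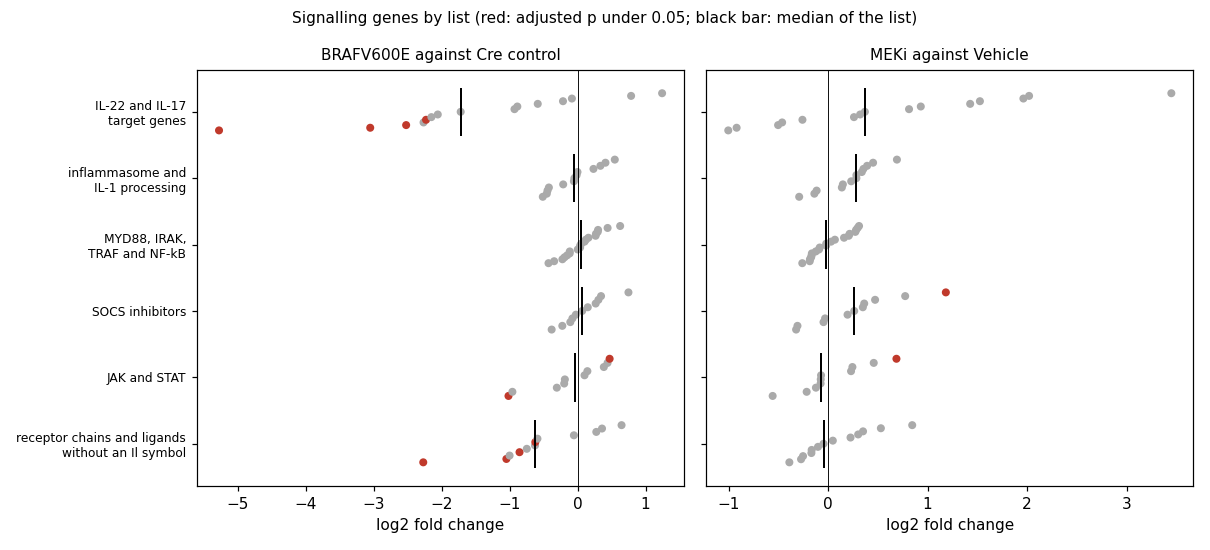
Log2 fold change of each tested signalling gene by list, BRAFV600E against Cre control on the left and MEKi against Vehicle on the right, with the median of each list as a black bar; red points passed an adjusted p of 0.05. The red points at left reach -5.27 (Reg3a) among the IL-22 and IL-17 target genes, and the 2 at right are Stat2 and Socs3.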

How the data were processed

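RNA from 20 samples was hybridised to one-colour Agilent mouse arrays. Per the file headers, the authors used Agilent Feature Extraction (10.5.1.1, per the submitters' processing notes) to write a processed intensity per spot, background-subtracted and not normalized between arrays. The deposited series matrix held the same intensity and served as an unscaled alternative. The authors' other deposited marks are 0 or 1 per spot and served as filters.

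Control and outlier spots were left out. Intensities were put on the log2 scale, each array's 75th percentile was subtracted, and copies of a probe were averaged. Probes were named through RefSeq (34023 by accession, 9993 by symbol, 318 by synonym, 12271 unnamed); the brightest probe stood for its gene. Whether probes lie in exons, introns or untranslated parts was not analysed here. The models (limma 3.58.1, R 4.3.3) used only the arrays compared and no covariates, and the script was tested on simulated data. The members, gene lists and tests were chosen with earlier results of these data known. Named in the text are called members, members whose groups did not overlap, a fixed set of gut interleukins, and up to 3 called signalling genes per list with the largest change; 1 gene of the signalling lists is not reported here and is left out of their counts. Alternatives changed the background correction, scaling, filter, probe choice, weights, covariates, slide and arrays.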

Additional observations from a re-analysis of the deposited data

Results flagged for a closer look

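Among 176 groups of 4 to 6 values of the named genes, 15 values lay far from the rest of their group, by a gap that chance gives in about 1 of 20 groups. In BRAFV600E replicate 2, the 3 Reg3 genes were low (Reg3a -7.19 against the next at -0.65, Reg3b -0.026 against 4.58, Reg3g 1.95 against 5.12) and Il1rn was high (0.36 against -2.06). Reg3a was also low in Cre control replicate 3 (4.36 against 5.03). In MEKi replicate 2, Il12rb1 was -2.35 against -1.11 and Il1r2 was -2.85 against -1.80. In Vehicle replicate 2, Il33 was -0.22 against 1.73, and in Vehicle replicate 4, Il18r1 was -3.81 against -2.53. Il5ra was -3.89 against -3.61 in MEKi replicate 3. Il16 was -0.79 against -1.27 in BRAFV600E replicate 5, and Il22 was -3.06 against -3.61 in BRAFV600E replicate 4. Il7 was -2.54 against -3.83 in Cre control replicate 5, Lif was -2.44 against 0.61 in Cre control replicate 4, and Il17ra was -6.39 against -3.76 in Cre control replicate 6. Each pair gives the log2 level of the named array and of the nearest other array of its group, and the cause was not tested.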

How the results depend on the processing

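In BRAFV600E against Cre control, the 13 called members became 23 with normexp background correction, 8 with no filter on dim probes, 8 with Y-linked signal as a covariate, 5 within slide 1 and 1 without the Cre control arrays of low spike-in slope, and 6 to 14 when 1 array was left out. Calls over all genes also moved, from 2372 to 4648, 1815, 1880, 734 and 426 in these settings, and to between 1441 and 2863 when 1 array was left out. The 10 called signalling genes became 40 on the unscaled values, 4 with no filter, 6 with every probe tested on its own, 5 with the Y-linked covariate, 6 within slide 1, 1 without the low-slope arrays, and 4 to 12 with 1 array left out. In MEKi against Vehicle, the 2 called members became 1 on the unscaled values, 5 with array weights, 1 with the Y-linked covariate and 1 in the fit of all 20 arrays, and 1 to 2 with 1 array left out. Calls over all genes there moved from 380 to 72, 1230, 59 and 529, and to between 76 and 376. The 2 called signalling genes became 4 with normexp, 4 with only probes well above background on every array, 1 with no filter, 1 with the mean of all probes, 1 with every probe tested on its own, 0 on the unscaled values, 0 with the Y-linked covariate, and 0 to 3 with 1 array left out. Without scaling between arrays, where the median of all genes lay at 0.79, the sign turned for Il12rb1 (0.14), Il16 (0.33), Il17re (0.15), Il18r1 (0.056), Il1rl2 (0.22), Il21r (0.0056), Il27ra (0.12) and Il7r (0.054), and Il13ra1 was called higher (0.78). The cause of the other changes was not tested, although leaving out arrays also lowers the number of samples. No paired analysis was possible because the replicate numbers follow accession order and pair no arrays. The number of arrays limits the precision, and members near background, such as Il7, have the least signal to compare.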
